A study of Mus musculus with 4 samples.

Results

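The 10 genes described here encode the 4 PDE4 phosphodiesterases (Pde4a, Pde4b, Pde4c and Pde4d) and the enzymes that act on the actin-severing protein cofilin: Cfl1 for cofilin itself, the LIM kinases Limk1 and Limk2, and the slingshot phosphatases Ssh1, Ssh2 and Ssh3. They were chosen by gene symbol, and all transcripts that GENCODE mouse release 21 assigns to them were taken from the deposited tables: 94 transcripts of 10 genes, out of 115898 matched transcripts of 35427 genes. RNA came from the hippocampus of C57BL/6J mice aged 4 months. All mice carried P2RY12CreER and Rpl22HA (RiboTag), a line in which a Cre recombinase driven by the microglial gene P2ry12 turns on an epitope-tagged Rpl22. An antibody to the tag then recovers ribosomes, with the messages on them, from microglia, the resident macrophages of the brain. All mice were fear conditioned, which teaches them to expect a shock. Control mice then slept for 6 h, whereas the sleep-deprived group stayed awake over those 6 h. Each sample pooled 2 mice, and each group had 2 files, which the study's text calls technical replicates. Groups follow the sample titles, because the labels give sleep deprivation as the treatment of all 4 samples.

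Total estimated reads were 14877011 and 14833320 for the control files, and 14473030 and 14431647 for the sleep-deprived files. For genes of 20 or more reads, files of 1 group deviated from each other with a chi-square of 0.335 (control) and 0.207 (sleep-deprived) for each degree of freedom, against 73.7 to 73.9 for files from different groups. Independent reads of 1 library would give about 1. Since the files within each group differed less than sampling noise allows, they were counted as 1 sample. Every ratio therefore sets a single library against another, with no replicate check and no p-value. Levels are CPM, read counts scaled to a common library size with TMM factors, and a bracketed range is the exact 95% interval of a ratio, which covers counting error only and says nothing about the spread between mice. A gene or transcript is called higher or lower where the ratio of sleep-deprived over control was at least 2-fold and its interval excluded 1. Markers of microglia were present, and so were those of other brain cells. The 12 microglial markers summed to 149 CPM with sleep and 413 CPM with sleep deprivation (2.77-fold, 2.63 to 2.90, 8 of 12 called higher). Sums were 2781 and 2456 CPM for 8 general and excitatory neuron markers, 3400 and 2136 CPM for 6 of oligodendrocytes, 1602 and 845 CPM for 7 of astrocytes, and 556 and 344 CPM for 6 of inhibitory neurons. No marker of these lists was at 0 in all files. In RNA pooled from many cells, fewer cells of a type and less RNA per cell cannot be told apart. With 1 library in each group, neither can be told apart from a difference in the yield or purity of the ribosome recovery.

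PDE4 enzymes break down the second messenger cAMP and so limit the activity of protein kinase A, the kinase that cAMP switches on. Each gene gives long forms, which carry both conserved upstream regions that regulate the enzyme, and shorter forms from internal starts that lack part of this stretch. LIM kinases phosphorylate cofilin at a serine next to its start and so switch its severing of actin filaments off, and slingshot phosphatases remove that phosphate and switch it on again. In hippocampal neurons, the long form PDE4A5, protein kinase A, LIM kinase and cofilin are known as a chain that links sleep loss to the loss of dendritic spines. In macrophages and microglia, PDE4B is known for its part in inflammatory cytokine production.

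The forms of Pde4a and Limk2 differ in where their coding part starts, and the reads of these forms moved apart between the groups, so the opening 90 coding bases are shown for 3 forms of each gene. Sequences were read from the GENCODE transcripts (GRCm38, the assembly that mm10 denotes), 5′ to 3′. Capitals mark bases that no transcript of the gene with another start shares. Pde4a lies on the plus strand of chromosome 9. Pde4a-202 (844 codons, the long form PDE4A5) starts coding at chr9:21165928-21166017. Pde4a-203 (787 codons) starts at chr9:21184418-21184507. Pde4a-201 (610 codons, the short form PDE4A1) starts at chr9:21197113-21198616, over an intron.
Pde4a-202: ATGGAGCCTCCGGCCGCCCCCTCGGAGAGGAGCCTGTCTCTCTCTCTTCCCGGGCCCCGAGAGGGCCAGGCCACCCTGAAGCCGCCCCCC
Pde4a-203: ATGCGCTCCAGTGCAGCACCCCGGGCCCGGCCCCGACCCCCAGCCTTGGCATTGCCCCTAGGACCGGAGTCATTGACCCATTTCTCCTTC
Pde4a-201: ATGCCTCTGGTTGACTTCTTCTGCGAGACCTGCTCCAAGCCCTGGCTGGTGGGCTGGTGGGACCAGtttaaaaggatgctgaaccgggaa
Limk2 lies on the minus strand of chromosome 11. Limk2-201 (638 codons) starts coding at chr11:3392943-3409061 and Limk2-203 (617 codons) at chr11:3360550-3371021, both over an intron. Limk2-204 (451 codons), a form that lacks the LIM domains, starts at chr11:3355817-3355906, inside coding sequence that the longer forms also use.
Limk2-201: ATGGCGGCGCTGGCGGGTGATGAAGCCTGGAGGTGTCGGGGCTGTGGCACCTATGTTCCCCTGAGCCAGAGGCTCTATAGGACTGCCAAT
Limk2-203: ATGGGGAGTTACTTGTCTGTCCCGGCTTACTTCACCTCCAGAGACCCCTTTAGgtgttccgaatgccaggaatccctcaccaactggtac
Limk2-204: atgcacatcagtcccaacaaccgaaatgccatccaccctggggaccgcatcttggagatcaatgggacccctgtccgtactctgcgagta
In Pde4a-201 the 66 bases of its own end where the exon it shares with the long forms begins. In Limk2-203 the 53 capital bases, which transcripts of the same start may share, end the same way.

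The substrate of the LIM kinases is shown by the opening 30 coding bases of cofilin and its 2 relatives, with the codon of the serine they phosphorylate, the third codon, in capitals. Cfl1-202 (166 codons) starts at chr19:5490600-5492523 on the plus strand, Cfl2-201 (166 codons, the muscle type of cofilin) at chr12:54861807-54862746 on the minus strand, and Dstn-201 (165 codons, destrin) at chr2:143915645-143938411 on the plus strand, all over an intron.
Cfl1-202: atggccTCTggtgtggctgtctctgatggt
Cfl2-201: atggcaTCTggagttacagtgaatgatgaa
Dstn-201: atggccTCAggagttcaggttgcggatgaa
Over these 30 bases Cfl1 differed from Cfl2 at 10 and from Dstn at 11.

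All 10 members were among the 14907 measured genes, those kept by a minimum count of 10, and 0 were called higher and 0 lower at 2-fold, where 4.37% of measured genes were called higher and 5.54% lower. At 1.5-fold, 2 were higher (Limk2 and Pde4a) and 0 lower, beside 12.8% higher and 13.2% lower among all measured genes. The median ratio of the 10 was 1.14, beside a median of 1.0 over all measured genes with quartiles of log2 at -0.37 and 0.36. Of the 10 intervals, 4 lay above 1, 3 below 1 and 3 held 1.

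**Figure D1:**
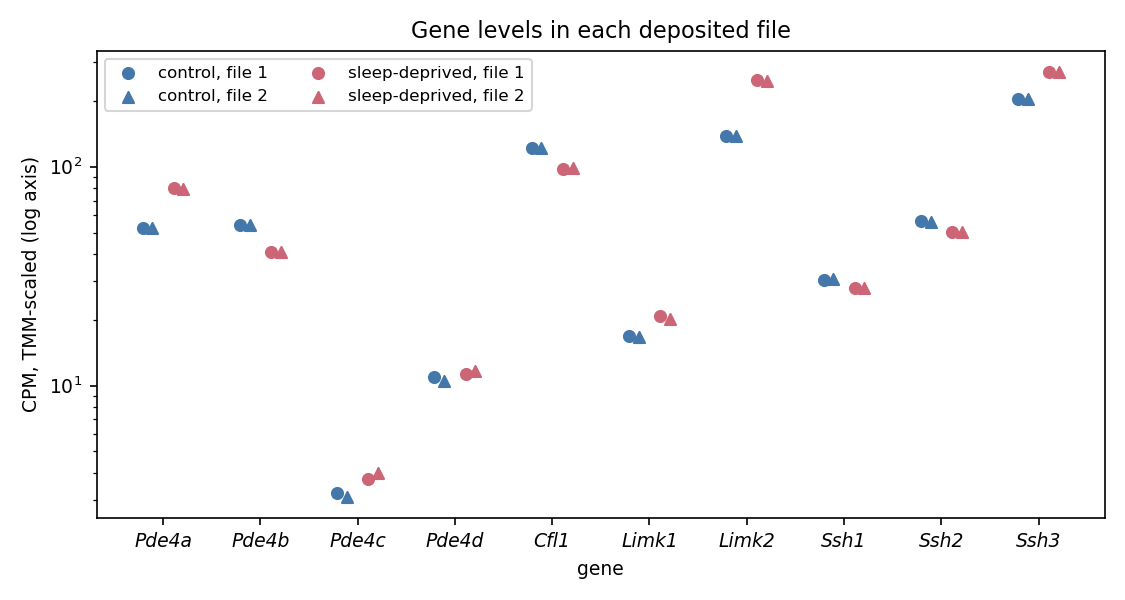
Level of each gene in each deposited file, in TMM-scaled CPM on a log axis. Blue marks control and red sleep-deprived files, with circles for file 1 and triangles for file 2 of a group. The files of a group lie almost on top of each other, Limk2 moves from 138 to 248 CPM, and Pde4b and Cfl1 lie below control.

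**Figure D2:**
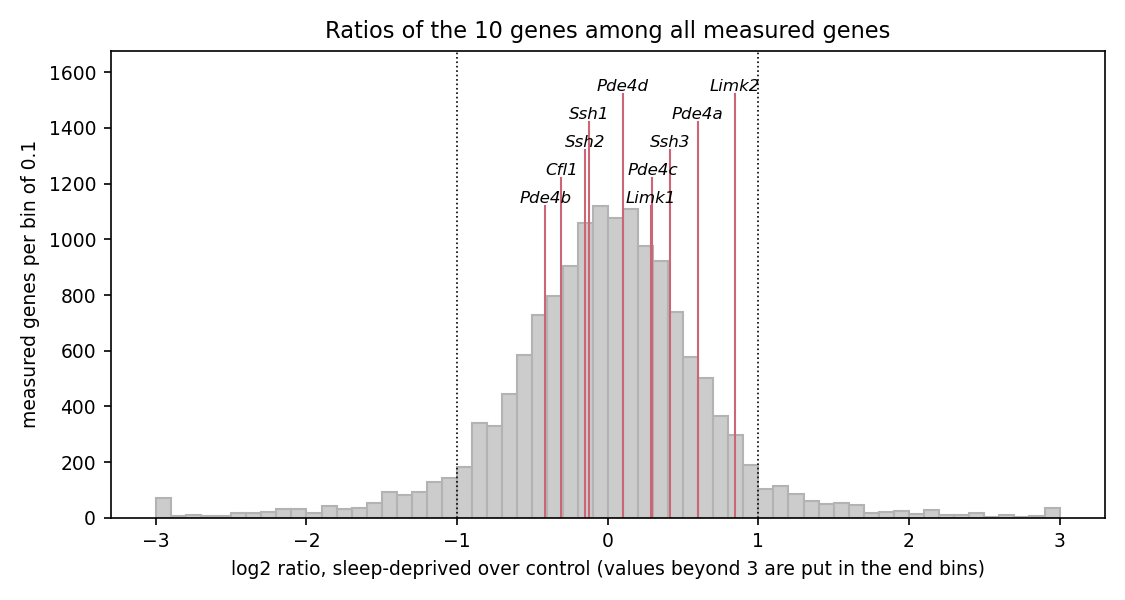
Number of measured genes per 0.1 of the log2 ratio of sleep-deprived over control (grey bars), with a red line at each of the 10 genes and dotted lines at the 2-fold limits. All 10 lines lie between the dotted lines, from Pde4b at -0.41 to Limk2 at 0.84.

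Pde4a and Pde4b, the most abundant PDE4 genes per unit of length, lay on opposite sides of control. Pde4a had 795 and 794 reads in the control files and 1126 and 1114 in the sleep-deprived files, or 52.5 and 79.4 CPM, a ratio of 1.51 (1.38 to 1.66). Pde4b had 821 and 823 reads in control files and 575 and 574 in sleep-deprived files, or 54.4 and 40.7 CPM, a ratio of 0.750 (0.673 to 0.835). The files of each group lay close together, which shows the technical spread of 1 library and not that between mice. In TPM, which divides by transcript length and so allows genes to be compared, Pde4a made up 35% and 36.4% of the TPM of the 4 PDE4 genes in the control files and 50.9% and 50.5% in the sleep-deprived files. Pde4b went from 49.6% and 46.9% to 36.7% and 36.9%, so the order of the pair was exchanged. With the mean transcript length of each library taken into account, the ratio of Pde4a was 1.67 and that of Pde4b 0.897, outside the counting interval of either value above.

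The other PDE4 genes were scarce and near control. Pde4d, whose enzyme has been studied for its role in memory, had 165 and 159 reads in control files and 160 and 164 in sleep-deprived files, a ratio of 1.07 (0.857 to 1.34) that turned to 0.834 with the length correction. Pde4c had 49 and 47 reads and then 53 and 56, a ratio of 1.23 (0.819 to 1.85). The intervals of both genes held 1. Summed over the 4 genes, PDE4 stood at 121 and 136 CPM, for a ratio of 1.12 (1.05 to 1.20).

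Within Pde4a, the short form moved most. Pde4a-201, which codes for the membrane-bound PDE4A1, had 8.12 and 7.99 estimated reads in the control files and 124 and 123 in the sleep-deprived files, a ratio of 16.6 (8.18 to 39.4). Its share of the gene went from 1.02% and 1.01% to 11% and 11%. The form passed the minimum of 10 mean reads, taken over all files, only through the sleep-deprived library. The transcript can be told apart by sequence: 472 stretches of 31 bases occur in no other transcript, 408 of them starting before the coding part and 64 inside it, where its own bases in capitals above lie. Pde4a-202, the long form PDE4A5, had 787 and 786 reads in control files and 996 and 987 in sleep-deprived files, a ratio of 1.35 (1.23 to 1.49), which was above control but not called. The mid-length form Pde4a-203 had 0 reads in control files and 4.16 and 4.12 in sleep-deprived files, too few for a ratio. It has 0 stretches of its own, so its reads were assigned by the model that divides shared reads. Its capitals above were not compared with transcripts of the same start, such as Pde4a-205. Of the 2139 stretches particular to Pde4a-202, 1621 lie after the coding part, so most of what tells the long form apart lies at its 3′ end and not at its own start.

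The starts of these forms stand in unlike sequence. The 250 bases before the RefSeq start (GRCm38.p6) that matches Pde4a-202, at chr9:21165464-21165713, and before the start that matches Pde4a-201, at chr9:21196455-21196704, are shown on the plus strand with each CG in capitals.
Pde4a-202 upstream: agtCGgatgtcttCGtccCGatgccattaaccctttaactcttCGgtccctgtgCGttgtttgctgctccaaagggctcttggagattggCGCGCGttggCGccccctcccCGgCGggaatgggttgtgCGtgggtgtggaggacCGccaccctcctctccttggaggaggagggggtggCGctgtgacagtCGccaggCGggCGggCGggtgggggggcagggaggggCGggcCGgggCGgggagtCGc
Pde4a-201 upstream: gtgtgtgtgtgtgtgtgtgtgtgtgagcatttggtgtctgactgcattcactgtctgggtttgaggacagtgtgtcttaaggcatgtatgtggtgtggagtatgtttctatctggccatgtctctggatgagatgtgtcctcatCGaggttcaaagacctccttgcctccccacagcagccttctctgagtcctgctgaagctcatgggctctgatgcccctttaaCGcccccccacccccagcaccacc
The long form's window held 22 CG and that of the short form 2, where the median over 32851 RefSeq windows of the same length was 6, with quartiles of 2 and 16. Across 20 RefSeq start windows of the 10 genes (300 bases, 250 before and 50 after the start, both strands), the cAMP response element TGACGTCA occurred in 0, against 1.79% of all windows. Its core TGACG occurred in 3 of 20 (15.0%), against 20.8% of all windows.

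Long and short PDE4 forms were also counted by transcript length and by coding length, and the classes did not match for every gene. Transcripts of at least 3000 bases held 99.0% of Pde4a reads in control (98.0 to 99.6) and 88.6% in the sleep-deprived library (86.6 to 90.4). For Pde4b the share was 92.6% and 90.8%, and for Pde4c 55.4% and 67.8%, with intervals that overlapped between the groups in both genes. For Pde4d, it was 76.9% (69.9 to 83.4) and 84.5% (78.1 to 89.8). Its longest transcript, Pde4d-207 (4207 bases), codes for only 584 codons, however, the length of a short form. By coding length, forms of at least 640 codons held 11.8% of the coding reads of Pde4d in control (7.18 to 18.6) and 5.95% in the sleep-deprived library (2.82 to 11.2). Pde4d-207 itself had 129 and 121 reads in control files and 139 and 135 in sleep-deprived files, a ratio of 1.18 (0.915 to 1.51). Of its 2100 own stretches, 1987 start after the coding part.

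Summed over the 4 genes by coding length, long forms had 1584 and 1595 reads in control files and 1561 and 1554 in sleep-deprived files, a ratio of 1.05 (0.980 to 1.13). Short forms had 196 and 185 reads in control files and 303 and 303 in sleep-deprived files, a ratio of 1.70 (1.41 to 2.05). Pde4a-201 alone gave 8.12 and 7.99 of the control reads and 124 and 123 of the sleep-deprived reads. The short class had a ratio of 0.740 (0.482 to 1.13) in Pde4b and 1.19 (0.930 to 1.53) in Pde4d. Both intervals held 1, and Pde4c had no such reads. The class is not made of short enzymes only. It also holds the nonsense-mediated decay transcript Pde4b-212 (166 codons) and the small Pde4b-210 (161 codons). Pde4b-207 (721 codons), the main Pde4b transcript with 90.8% of its reads in both control files, had 745 and 747 reads in control files and 523 and 521 in sleep-deprived files, a ratio of 0.750 (0.670 to 0.840). All 1398 stretches particular to Pde4b-207 start after the coding part. They therefore do not mark its long coding part, and its count as a long form is less certain. The short form Pde4b-203 (564 codons, PDE4B2, the form known from leukocytes) had 5.27 and 9.13 reads in control files and 24.2 and 21.4 in sleep-deprived files, a ratio of 3.52 (1.46 to 9.72). It passed the minimum of 10 mean reads only through the sleep-deprived library. The main Pde4c transcript, Pde4c-207 (646 codons), had 25.4 and 24.3 reads and then 30.6 and 32.0, and the remaining reads of that gene lay on the retained-intron transcripts Pde4c-204 and Pde4c-206. In Pde4d, the long form Pde4d-218 (753 codons) had 13.3 and 11.5 reads and then 7.32 and 10.3, and the noncoding Pde4d-210 had 11.9 and 12.4 reads and then 13 and 14, so neither stood apart at this depth.

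Cfl1, the substrate at the end of the chain, was below control. It had 1841 and 1833 reads in control files and 1380 and 1386 in sleep-deprived files, or 121 and 98.1 CPM, a ratio of 0.807 (0.752 to 0.866). With the length correction its ratio was 0.885, outside the counting interval of the value above. The interval of the corrected ratio also lay below 1. Cfl1-202, the reference form of 166 codons whose opening bases are shown above, had 742 and 741 reads in control files and 464 and 457 in sleep-deprived files, a ratio of 0.666 (0.592 to 0.749). Cfl1-201 (227 codons) had 802 and 767 reads and then 626 and 597, a ratio of 0.837 (0.752 to 0.932), and Cfl1-204 (178 codons) had 208 and 250 reads and then 219 and 253, with overlapping groups. The retained-intron transcript Cfl1-203 had 89.2 and 74.6 reads and then 71.2 and 78.2, also overlapping. Of the 31-base stretches of Cfl1, 22.6% also occur in other genes, among them processed copies and Snx32, which overlaps 16.5% of its exon bases on the opposite strand, so its level is less certain than that of the other members. In TPM, Cfl1 stood at 194 and 197 in control and 196 and 203 in sleep-deprived files.

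Limk2, a kinase of cofilin that is found in most tissues, showed the largest ratio of the 10 genes. It had 2091 and 2089 reads in control files and 3501 and 3490 in sleep-deprived files, or 138 and 248 CPM, with a ratio of 1.79 (1.70 to 1.89), short of the 2-fold limit. With the mean transcript length of each library taken into account the ratio was 2.08, and Limk2 was then called higher. That length is a mean over coding and noncoding transcripts of the gene. In reads, its protein-coding transcripts had a ratio of 1.73 (1.63 to 1.84). Its noncoding transcripts had a ratio of 2.16 (1.88 to 2.48). Their share of the gene was 18.2% and 11.7% in the control files and 18.0% in both sleep-deprived files. The split thus differed within the control library, and the groups overlapped. Limk1, the kinase gene deleted in Williams syndrome and known for its role in neuronal spines, had 256 and 251 reads in control files and 293 and 283 in sleep-deprived files, a ratio of 1.22 (1.03 to 1.45). Limk2 held 92.5% and 90.9% of the TPM of the pair in control and 94.7% and 94.9% in sleep-deprived files. Summed over both kinases the ratio was 1.73 (1.64 to 1.82).

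The Limk2 reads were spread over several annotated starts, and each of the 3 main starts was above control. Transcripts were grouped where their starts lay within 100 bases, a grouping chosen after the data were seen. The start at chr11:3371335-3371376, used by Limk2-202 and Limk2-203 among others, had 340 and 392 reads in control files and 951 and 913 in sleep-deprived files, a ratio of 2.73 (2.42 to 3.09). The start at chr11:3409174-3409189, used by Limk2-201, had 388 and 464 reads in control files and 731 and 689 in sleep-deprived files, a ratio of 1.79 (1.58 to 2.02). The internal start at chr11:3356141-3356203, used by Limk2-204 (the form without LIM domains), had 1186 and 1059 reads in control files and 1340 and 1415 in sleep-deprived files, a ratio of 1.32 (1.22 to 1.42). Its share of the gene went from 56.7% and 50.7% to 38.3% and 40.6%. Between the starts, then, the order of the ratios ran from the middle start over the outermost to the internal one, with intervals that did not overlap. Those intervals cover counting error only. They leave out the model's division of reads between starts, which differed between the control files.

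Single Limk2 transcripts behind 1 start could not be told apart in the same way. Limk2-203 had 0 reads in both control files and 570 and 532 in sleep-deprived files, while Limk2-202, from the same start, had 166 and 323 in control and 228 and 224 in sleep-deprived files. Neither has a 31-base stretch of its own, so this split is the model's, and the sum over their start is the value to read. Limk2-208, a noncoding transcript of that start, had 173 and 69.0 reads in control files and 151 and 157 in sleep-deprived files, which overlapped. The short noncoding transcripts Limk2-213 and Limk2-209, which have 420 and 485 stretches of their own, were both called higher. Limk2-213 had 88.9 and 84.1 reads and then 219 and 216 (ratio 2.69, 2.09 to 3.49), and Limk2-209 had 81.8 and 85.0 reads and then 219 and 208 (ratio 2.76, 2.14 to 3.61). Limk2-207 went from 6 and 5 reads to 41 and 43 (ratio 7.51, 3.18 to 21.6).

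The starts of Limk1 went in opposite directions, while its total stayed within 1.5-fold. Reads from the outer start at chr5:134688574-134688598 (Limk1-201, 647 codons, and Limk1-203) numbered 128 and 149 in control and 254 and 255 in sleep-deprived files, a ratio of 1.98 (1.6 to 2.46). Those from the inner start at chr5:134678220-134678248 (Limk1-202, 639 codons, and Limk1-204) numbered 107 and 80.2 in control and 24.8 and 13.7 in sleep-deprived files, a ratio of 0.217 (0.125 to 0.358). The inner start thus went from 41.8% and 31.9% of the gene to 8.45% and 4.83%. Limk1-202 had 104 and 80.2 reads in control and 0 in both sleep-deprived files, a ratio of at most 0.0350 against a floor of 3 reads, and was the only member transcript called lower. Limk1-204, a nonsense-mediated decay transcript of the same start, had 3.10 and 0 reads in control files and 24.8 and 13.7 in sleep-deprived files, and the interval of its ratio ran from 2.46 to 90.2. This transcript passed the minimum of 10 mean reads only through the sleep-deprived library. Only 25 stretches of Limk1-201 and 28 of Limk1-202 occur in no other transcript, so few reads set these transcripts apart from all others. Stretches that set the starts apart were not counted. The reads of each start are also model estimates, and their split differed between the control files. The retained-intron transcript Limk1-205, with 21.4 and 20.5 reads and then 13.4 and 12.9, had a ratio of 0.664 (0.305 to 1.39).

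The upstream sequence of the Limk1 starts is shown for the same reason as for Pde4a, 250 bases before the matching RefSeq starts (GRCm38.p6), at chr5:134688591-134688840 for Limk1-201 and chr5:134678249-134678498 for Limk1-202, minus strand, each CG in capitals.
Limk1-201 upstream: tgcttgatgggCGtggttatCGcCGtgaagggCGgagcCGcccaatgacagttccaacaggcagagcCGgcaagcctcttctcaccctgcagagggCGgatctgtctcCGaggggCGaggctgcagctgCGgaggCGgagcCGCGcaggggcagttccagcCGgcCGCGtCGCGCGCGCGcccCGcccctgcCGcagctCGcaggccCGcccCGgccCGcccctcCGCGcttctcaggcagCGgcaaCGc
Limk1-202 upstream: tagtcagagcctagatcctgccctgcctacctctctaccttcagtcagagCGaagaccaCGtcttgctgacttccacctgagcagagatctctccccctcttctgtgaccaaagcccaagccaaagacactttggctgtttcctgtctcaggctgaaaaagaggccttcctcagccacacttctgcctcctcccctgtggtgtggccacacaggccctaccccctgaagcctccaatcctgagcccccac
The outer window held 31 CG and the inner window 2. In Pde4a the start with few CG gained share and in Limk1 it lost share. The windows before the internal, middle and outermost Limk2 starts held 3, 15 and 17 CG.

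**Figure D3:**
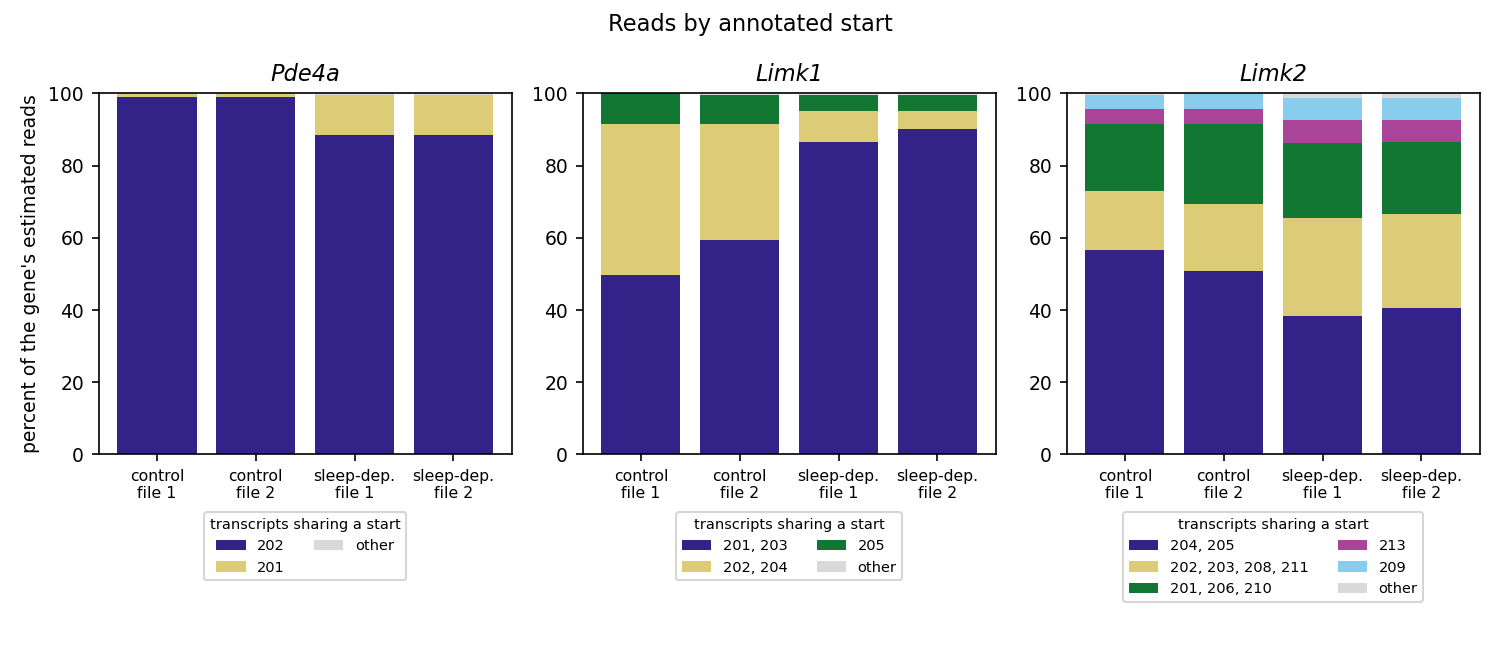
Percent of the estimated reads of Pde4a, Limk1 and Limk2 on transcripts that share an annotated start, 1 bar per deposited file, stacked to 100%. The start of Pde4a-201 goes from about 1.01% to 11%, the start of Limk1-202 and Limk1-204 shrinks to 8.45% and 4.83%, and that of Limk2-204 and Limk2-205 to 38.3% and 40.6%.

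Of the phosphatases, Ssh3 was above control and the other pair near it. Ssh3 had 3085 and 3069 reads in control files and 3821 and 3813 in sleep-deprived files, or 204 and 271 CPM, a ratio of 1.33 (1.27 to 1.40). With the length correction its ratio was 1.44 (1.37 to 1.51), outside the counting interval of the value above. Ssh1, the slingshot member best known for activating cofilin, had 457 and 462 reads and then 394 and 392, a ratio of 0.916 (0.799 to 1.05). Ssh2 had 851 and 845 reads and then 713 and 712, a ratio of 0.90 (0.814 to 0.996). Nearly all reads of the latter pair lay on 1 coding transcript each, Ssh1-204 (99.8% in both control files, 1042 codons) and Ssh2-201 (95.5% and 95.8%, 1423 codons), so no change of form could be seen in them.

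The additional Ssh3 reads lay mostly on transcripts that do not code for the full phosphatase. Its protein-coding transcripts had 2000 and 2011 reads in the means of the groups, for a ratio of 1.08 (1.01 to 1.15). Its retained-intron transcripts had 990 and 1622 reads, a ratio of 1.76 (1.62 to 1.90), and went from 32.3% and 32.0% of the gene to 43.0% and 42.0%. Over all genes, the share of reads on retained-intron transcripts was 10.6% in both control files and 13.3% in both sleep-deprived files, so the whole library moved in that direction, and the part of this shift in the Ssh3 values was not tested. Among the single transcripts, Ssh3-206 had 661 and 630 reads and then 1036 and 1023 (ratio 1.71, 1.55 to 1.89). Ssh3-203 had 156 and 160 reads and then 336 and 324 (ratio 2.24, 1.85 to 2.72) and was called higher, as was the small Ssh3-212, with 14.4 and 12.4 reads and then 49.2 and 49.2 (ratio 4.04, 2.16 to 8.12). Ssh3-212 has 0 stretches of its own, so its reads were assigned by the model. The nonsense-mediated decay transcripts Ssh3-204, with 63.8 and 85.9 reads and then 168 and 123, and Ssh3-210, with 18.6 and 6.59 reads and then 44.0 and 32.3, were called higher from the means but not in every pairing of a control with a sleep-deprived file. The coding forms Ssh3-201 (649 codons) and Ssh3-202 (648 codons) differ by 1 codon and share nearly all their sequence, and their ratios were 1.03 (0.951 to 1.12) and 1.16 (1.05 to 1.28).

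**Figure D4:**
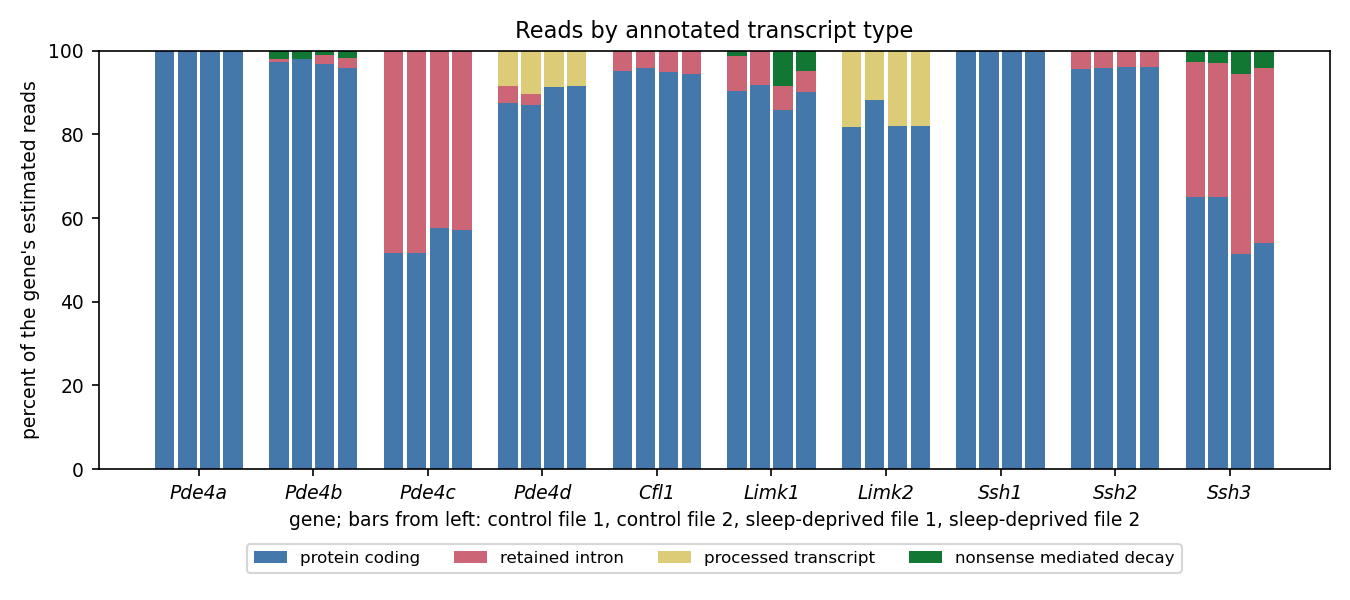
Percent of each gene's estimated reads on protein-coding, retained-intron, processed (noncoding) and nonsense-mediated decay transcripts, 4 bars per gene in the order control file 1, control file 2, sleep-deprived file 1 and sleep-deprived file 2. The retained-intron part of Ssh3 goes from 32.3% and 32.0% to 43.0% and 42.0%, while Pde4a and Ssh1 are almost wholly protein coding in each file.

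Counted over all member transcripts, 26 of 94 had no reads in any file and 38 had a mean of at least 10 reads and were compared. Of these 38, 11 were called higher and 1 lower, where 22.0% of the 37315 transcripts compared in the whole table were called higher and 11.9% lower. In every pairing of a control with a sleep-deprived file, 9 were higher and 1 lower, where 17.5% of transcripts were higher and 8.80% lower. Single transcripts passed 2-fold more often than genes across the whole table, and transcripts of 1 gene share reads, so they do not count as independent.

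Set against each other per unit of length, over coding and noncoding transcripts together, the kinase genes came closer to the phosphatase genes. Noncoding transcripts took 18.2% and 11.7% of Limk2 reads in the control files and 18.0% in both sleep-deprived files, so the groups overlapped. Retained-intron transcripts took 32.2% and then 42.5% of Ssh3 reads. Short transcripts weigh more in TPM than in reads. The sums are therefore no measure of the balance of the enzymes, and that of coding transcripts alone in TPM was not tested. The TPM of Ssh1, Ssh2 and Ssh3 together was 1.68 and 1.83 times that of Limk1 and Limk2 in the control files and 1.24 and 1.19 times in the sleep-deprived files. In CPM, phosphatases summed to 290.0 and 349, with a ratio of 1.20 (1.16 to 1.25), beside 1.73 for the kinases. By level in TPM, Cfl1 (195), Ssh3 (191) and Limk2 (109) led in control, followed by Pde4b (26.2), Pde4a (19.4), Ssh2 (11), Limk1 (9.81), Pde4d (6.71), Ssh1 (6.47) and Pde4c (2.01). In the sleep-deprived library Ssh3 (318) and Limk2 (263) stood above Cfl1 (199.8), and Pde4a (37.3) above Pde4b (27.1). In control, Pde4d (6.46 and 6.95) and Ssh1 (6.42 and 6.52) were neighbours whose files overlapped. TPM values are not compared between groups here, because the median gene stood 0.22 higher on the log2 scale in the sleep-deprived TPM.

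Beside these ratios stand those of the cell type markers, all from the same libraries. Sums for astrocytes (0.528), inhibitory neurons (0.620) and oligodendrocytes (0.628) were below control, that of neurons in general was 0.883, and those of oligodendrocyte precursors (0.955) and endothelial cells (0.980) were near it. Markers of border-associated macrophages summed to 7.14 and 11.1 CPM, of neutrophils and monocytes to 2.25 and 2.06 CPM, and of lymphocytes to 0.926 and 1.42 CPM. The most abundant markers of neurons, oligodendrocytes, astrocytes and inhibitory neurons were, in that order, Snap25 (1406 and 1052 CPM), Mbp (1657 and 749 CPM), Slc1a3 (461 and 311 CPM) and Gad1 (274 and 159 CPM). Those of the smaller lists were Vcan (44.6 and 49.7 CPM), Slco1a4 (69.3 and 61.9 CPM), Cd163 (1.95 and 4.54 CPM), Ccr2 (0.694 and 0.851 CPM) and Cd79a (0.298 and 0.780 CPM). The part of these markers' cell types in the ratios of the 10 genes was not tested.

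The pathway around the members was described by 6 lists of 78 genes, of which 77 were measured (all but Pde11a). At 2-fold, 0 were called higher and 2 lower, beside 4.37% and 5.54% of all measured genes. The lower pair were Adcy2, an adenylyl cyclase, with 381 and 382 reads in control files and 167 and 168 in sleep-deprived files (ratio 0.472, 0.391 to 0.567), and Pde8a, a cAMP-specific phosphodiesterase, with 361 and 352 reads and then 152 and 154 (ratio 0.461, 0.379 to 0.559). At 1.5-fold, 9 were higher and 9 lower, beside 12.8% and 13.2%. With the length correction Arrb2 was also called higher, and with scaling by library totals Actg1 was also called lower. The median ratio over the 77 was 0.991, near that of all measured genes.

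Genes that make cAMP varied among themselves. The 10 adenylyl cyclases had a median ratio of 1.16, with 6 above and 4 below 1, from Adcy2 at 0.472 to Adcy9 at 1.90. Adcy1, a calcium-stimulated cyclase and the most abundant of the list, had 28743 and 28662 reads in control files and 19269 and 19214 in sleep-deprived files, a ratio of 0.719 (0.706 to 0.732). Adcy6, a calcium-inhibited cyclase, had 1058 and 1060 reads and then 1580 and 1581, a ratio of 1.6 (1.48 to 1.73). Adcy6, Adcy9 and Adcy4 passed 1.5-fold upward.

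Among 9 subunits and inhibitors of protein kinase A the median ratio was 0.840, with 2 above and 7 below 1 and 0 called at 2-fold. Prkar1a, a regulatory subunit, stood at 273 and 287 CPM (ratio 1.05), Prkacb, a catalytic subunit, at 153 and 119 CPM (0.782), and the inhibitor Pkia passed 1.5-fold downward (0.621). Of 11 other cAMP-degrading phosphodiesterases that were measured, 4 were above and 7 below 1, with a median of 0.841. The most abundant were Pde10a, at 244 and 182 CPM (ratio 0.743), and Pde1c, at 145 and 158 CPM (1.09). Of 14 anchors, arrestins and cAMP sensors, 9 were above and 5 below 1 (median 1.17): Rapgef4, the cAMP sensor Epac2, had a ratio of 0.697, Pde4dip, which anchors PDE4D, 1.25, and Arrb2, the arrestin that carries PDE4 to receptors, 1.86 (1.72 to 2.0).

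Of 13 kinases upstream of the LIM kinases, other cofilin kinases and small GTPases, 9 were above and 4 below 1, with a median of 1.11 and 0 called at 2-fold. Rock2, a kinase that activates LIM kinases, had 3639 and 3626 reads in control files and 5538 and 5515 in sleep-deprived files, a ratio of 1.63 (1.56 to 1.70). Cdc42bpa, a kinase that acts on LIM kinases downstream of Cdc42, had 4690 and 4668 reads and then 7145 and 7142, a ratio of 1.64 (1.58 to 1.70). Both passed 1.5-fold, while Rhoa (1.06), Rac1 (0.922) and Cdc42 (1.0) had intervals that held 1. Pak3, a kinase of the same list, passed 1.5-fold downward (0.616).

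Among 20 further genes of actin turnover, 8 were above and 12 below 1 (median 0.915). The relatives of Cfl1 differed in direction: Dstn had 1711 and 1713 reads in control files and 927 and 920 in sleep-deprived files, a ratio of 0.579 (0.534 to 0.627), and Cfl2 had 1842 and 1839 reads and then 2100 and 2093, a ratio of 1.22 (1.15 to 1.30). Cap1, which recycles cofilin-bound actin, had a ratio of 1.72 (1.6 to 1.85), and its relative Cap2 one of 0.639 (0.570 to 0.716). Coro1a, an actin regulator, was at 1.66 (1.5 to 1.84). Ppp3ca, the catalytic subunit of calcineurin, which activates slingshot, stood at 649 and 430 CPM (0.663), and Ywhaz, a 14-3-3 protein that binds phosphorylated cofilin and slingshot, at 243 and 196 CPM (0.808). Actg1, a cytoplasmic actin, was at 0.512 (0.479 to 0.547), beside 1.12 for Actb.

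**Figure D5:**
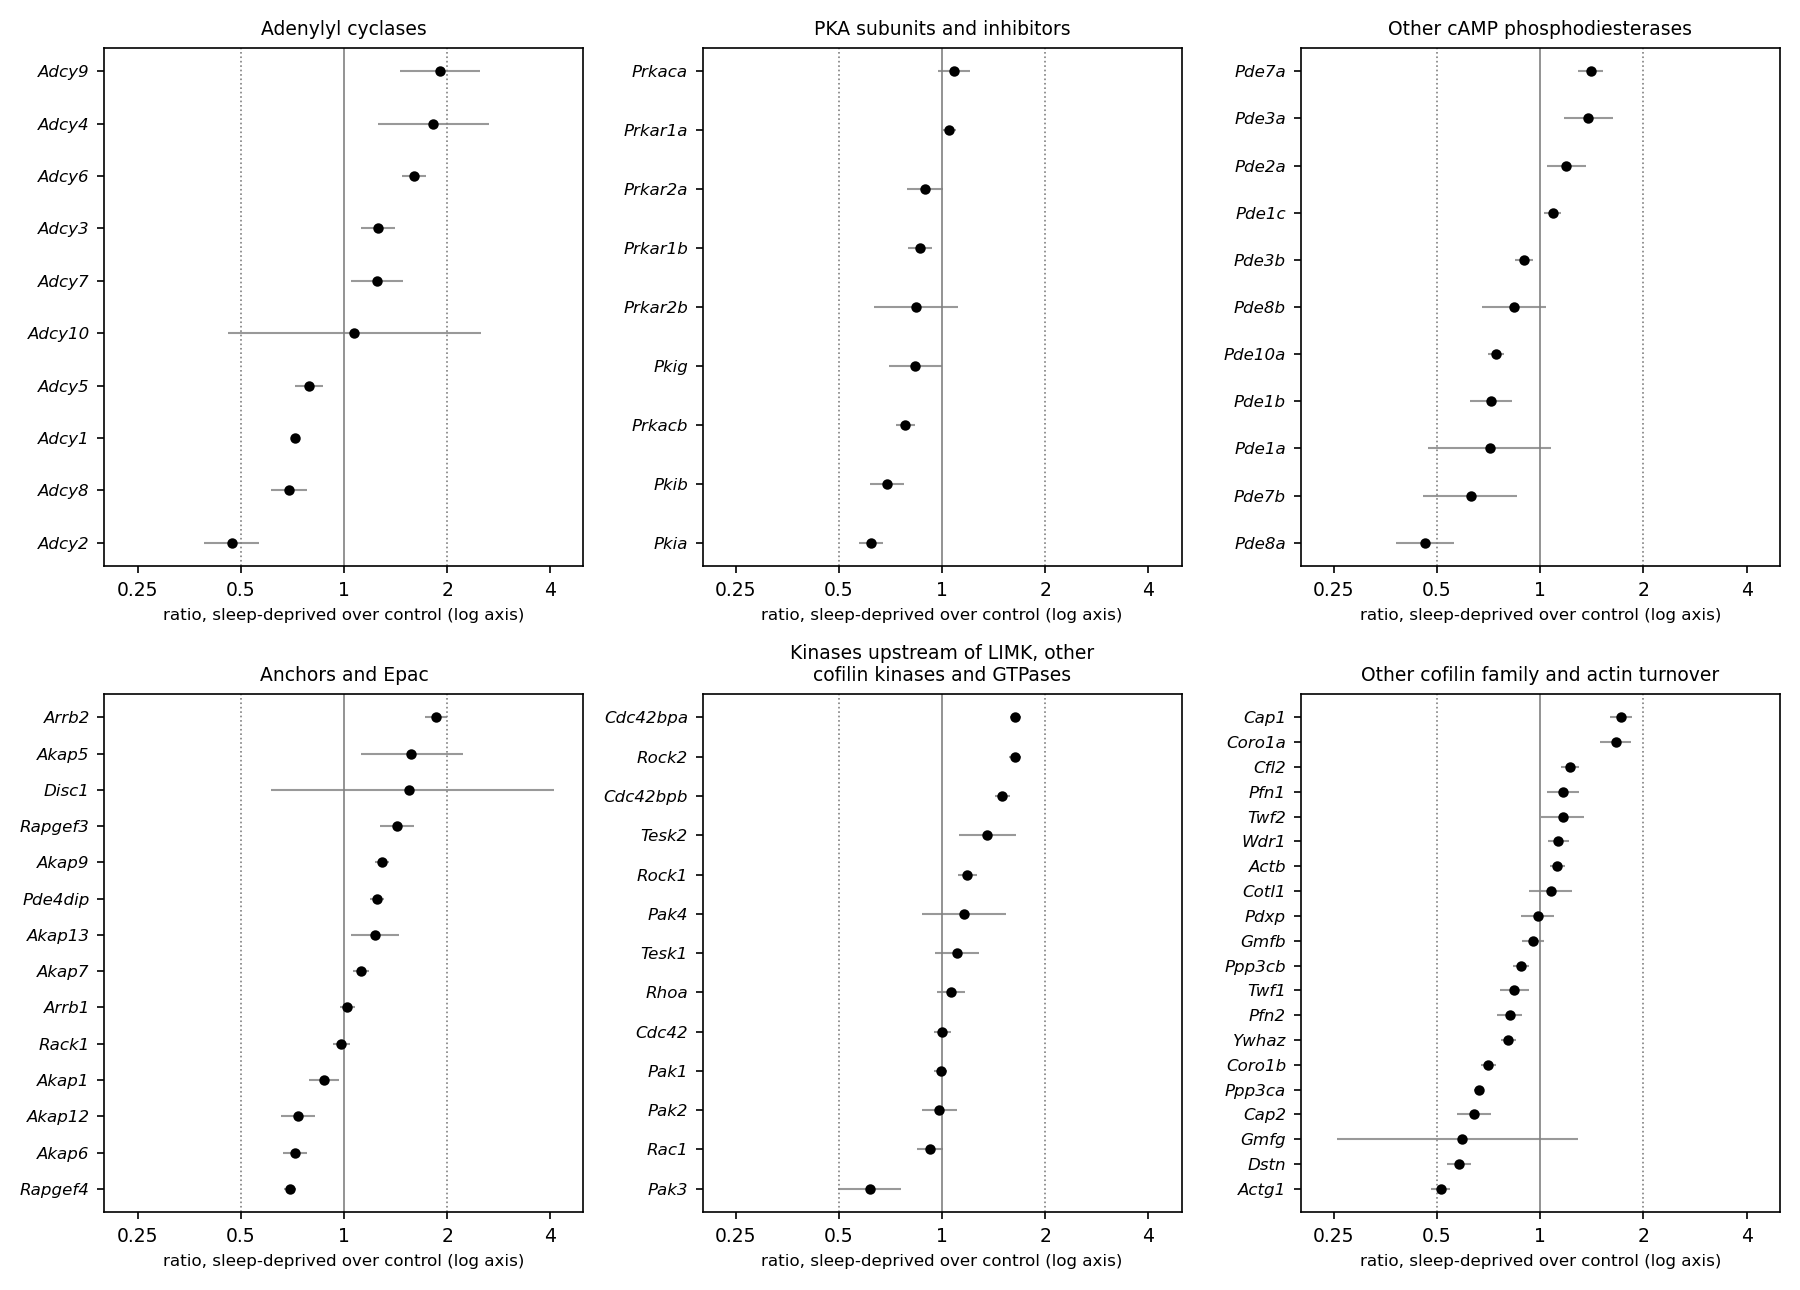
Ratio of sleep-deprived over control for each measured gene of the 6 pathway lists, on a log axis, with bars for the exact 95% counting interval, a solid line at 1 and dotted lines at the 2-fold limits. Adcy2 and Pde8a are the points called lower, Actg1 sits just inside the limit at 0.512, and no point is called higher at this scaling.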

How the data were processed

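RNA recovered by the tagged-ribosome pulldown was measured in 4 samples. A file holds 116546 transcripts, with columns for length, effective length, TPM and reads, per the file headers. The estimated counts were deposited by the authors without normalization, per the file headers. The TPM values, also deposited by the authors, are scaled by length and library. The lengths, another column per the file headers, were used to class PDE4 transcripts. Salmon, DESeq2 and mm10 are named per the submitters' processing notes. Their versions, the annotation and strand use: not given in the sources used here.

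Identifiers, stripped of their version, were matched to GENCODE mouse release 21 (99.4% matched), and counts were summed per gene and rounded. Scaling was by TMM over all genes (edgeR 4.0.16, R 4.3.3). Measured genes are those that filterByExpr (minimum count 10) kept. The edgeR quasi-likelihood test that had been planned was not run, because each group came to 1 library. A rule of size took its place: at least 2-fold, with an exact conditional (Clopper-Pearson) 95% interval that excludes 1, and groups under 3 reads set to 3. The length correction uses TPM-weighted effective lengths. Reads are not independent molecules, and intervals and floors cover counting error only. The study's text calls the files of a group technical replicates, so the spread between them may be technical only. In counts simulated for this comparison over 14836 genes, all 50 genes set 3-fold higher were called, 49 of the 50 set 3-fold lower, all 50 at each 5-fold change, and 74 of 14636 unchanged genes. The simulated gene counts held counting error only, without spread between mice or the division of reads between transcripts. They therefore check the working of the rule and do not give its rate of false calls in these libraries.

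Named were all 10 members, member transcripts with at least 5% of their gene's reads in either group, from each pathway list the called genes and the 2 with the highest mean CPM, and the most abundant marker per list, of which 1 is not reported here. Other genes and transcripts named with values were chosen after these were seen. The members and lists were chosen with earlier results of these data known. Promoters are from RefSeq (GRCm38.p6).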

Additional observations from a re-analysis of the deposited data

How the results depend on the processing

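No paired analysis was possible because the files of a group came to 1 library, so no test with a replicate block could be fitted. The edgeR quasi-likelihood and DESeq2 Wald tests were not run for the same reason. With the transcript length correction 1 member was called (Limk2, higher) and 3 pathway genes (Arrb2 added, higher). With library totals 3 pathway genes were called (Actg1 added, lower). At 1.5-fold 2 members and 18 pathway genes were called, against 0 and 2 at 2-fold. Scaling by DESeq2 size factors, by library totals, by TMM over the measured genes only (added after the data were seen) or without the filter on low counts gave 0 called members. Library totals shifted the median gene by -0.06 on the log2 scale. Leaving out any file gave 0 called members, 2 called pathway genes and between 10 and 15 called member transcripts. With a minimum of 50 mean reads, 6 member transcripts were called in place of 12. The share of reads on long PDE4 transcripts depended on the limit. At 2000 bases it was 100% in both groups for Pde4a and Pde4c, 97.5% and 97.1% for Pde4b, and 94.8% and 98.3% for Pde4d (control, then sleep-deprived). At 4000 bases it was 0% for Pde4c in both groups. By coding length it was 100% for Pde4c in both groups, and 11.8% and 5.95% for Pde4d. By TPM it was 80.0% for sleep-deprived Pde4a, 76.9% and 63.0% for Pde4b, and 50.04% and 71.2% for Pde4d. Leaving out a file, the shares ranged from 98.98% to 98.99% and 88.58% to 88.59% for Pde4a, 92.1% to 93.2% and 90.7% to 90.9% for Pde4b, 55.3% to 55.5% and 65.9% to 69.7% for Pde4c, and 75.9% to 77.9% and 82.4% to 86.7% for Pde4d.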
